A study of Pistacia vera with 20 samples.

Results

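The hull of the pistachio fruit, the exocarp and mesocarp around the shell, was followed from 91 to 133 days post anthesis (d) in the cultivars Golden Hills and Lost Hills of Pistacia vera, and the comparison asked which genes aged differently in the 2 cultivars. Of the 20 RNA sequencing libraries, the 14 from intact hulls were used, chosen by their labels: 4 of Golden Hills and 4 of Lost Hills at 91 d, and 3 of each cultivar at 133 d. The other 6 libraries, 3 of tattered Golden Hills and 3 of cracked Lost Hills hulls at 133 d, entered no test and are given beside single genes as a further set of samples. All fruit came from a commercial orchard, the tissue was the whole hull, and no treatment is named for any group. The labels number the replicates of each group but do not say whether they came from separate trees, so p-values measure the spread between these samples, which may be in part technical.

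Pistachio hulls soften, change colour and loosen from the shell as the nut matures, with remodelling of the cell wall, dismantling of the photosynthetic apparatus and export of nutrients as in other ageing plant organs. Ethylene signalling controls ripening and senescence in many fruits: its receptors hold the pathway off until they bind ethylene, and several receptors and F-box repressors are themselves induced by the hormone. Plants short of phosphate, or withdrawing it from old tissue, turn on a shared set of genes for sensing phosphate, freeing it from esters, nucleic acids and membrane phospholipids, and moving it between cells.

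Age changes are differences in mean log2(FPKM + 1) between 133 d and 91 d, where FPKM is read abundance scaled to gene length and library size. The library size behind the deposited values is not the total of reads assigned to genes, since scaling to those totals gave other results (below). The interaction is the age change in Golden Hills minus the age change in Lost Hills. A positive value means a more positive change in Golden Hills, and genes count as called where limma gave an adjusted p (Benjamini-Hochberg, over all 19148 genes tested) under 0.05. Because 1 is added before the log, these differences understate the fold of genes near 0 and are not given as folds. Levels below are FPKM, listed by replicate number or as mean ± SD (n = 4 at 91 d, n = 3 at 133 d). Gene names are the protein matches of the deposited table, most of them from Arabidopsis thaliana, and the roles given are those known for these proteins there unless another species is named. Positions are 1-based on the contigs named in the deposited table, whose assembly name is not given in the sources used here. In whole-hull RNA, fewer cells of a type and less RNA per cell cannot be told apart.

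The intact libraries held 16116971 to 18609861 reads assigned to genes, with a read for 22377 to 23344 of the 39783 genes. Replicate 2 of both 91 d groups held reads of genes that were otherwise read almost only in the other cultivar. In replicate 2 of Lost Hills the median level of 14 genes read almost only in Golden Hills was 36.9% of that in their own cultivar. For 12 such genes of Lost Hills it was 27.1% in replicate 2 of Golden Hills and 9.15% in its replicate 3, and no other library of 91 d exceeded 1.18%. Results are therefore given with and without replicate 2 of both groups. On the first principal component of the 14 libraries (57.9% of the variance) the 91 d groups lay together, Golden Hills at -44.5 ± 5.27 and Lost Hills at -47.5 ± 3.31. At 133 d Golden Hills lay at 81.6 ± 3.71 and Lost Hills at 41.1 ± 15.9, so the Golden Hills libraries had moved further and the Lost Hills ones were more spread. Seed storage proteins and oleosins, which mark kernel tissue, summed to 53.9 to 97.7 FPKM over 24 genes in Golden Hills at 91 d and to 14.9 to 24.4 at 133 d, and to 49.8 to 113 and 28.5 to 46.1 in Lost Hills. 3 of the 24 were at 0 in all 14 libraries, and the sums were lower at 133 d in both cultivars. With the late embryogenesis abundant genes, which lead the full list of 32, the sums were 749 to 1186 and 1029 to 1284 in Golden Hills and 677 to 763 and 817 to 1012 in Lost Hills. The part of kernel RNA in the results below was not tested.

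Golden Hills changed more genes, and changed most of them further. By limma, 4363 genes rose (22.8% of those tested) and 4245 fell (22.2%) with age in Golden Hills, against 3016 (15.8%) and 3012 (15.7%) in Lost Hills. The even split between rises and falls in Golden Hills depends on scaling: with TPM 3101 rose and 5914 fell, and with library totals 3144 and 5923. The Lost Hills counts were 2762 and 3187 with TPM and 2751 and 3291 with library totals. The age changes were spread with an SD over genes of 0.93 in Golden Hills and 0.71 in Lost Hills, and were correlated across genes (Pearson 0.814, Spearman 0.734, a description across genes of libraries that the 2 arms do not share). The absolute change was larger in Golden Hills for 11952 genes, 62.4% of those tested.

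The interaction itself was called for 613 genes (3.2%), 382 with a positive (1.99%) and 231 with a negative value (1.21%), and 3535 had an unadjusted p under 0.05. By the sign of the estimates alone, most called genes moved the same way in both cultivars but further in Golden Hills. By these signs 236 rose in both with the larger rise in Golden Hills and 133 fell in both with the larger fall there. Opposite signs were found for 131 genes that were higher with age in Golden Hills and lower in Lost Hills and for 85 with the reverse. The larger change lay in Lost Hills for 14 genes lower in both and 13 higher in both, and 1 gene had no change at all in the Lost Hills fit. The age change itself was called in both cultivars for fewer genes, in the same direction for 208 of the 613 and in opposite directions for 65. It was called in Golden Hills only for 288 and in Lost Hills only for 52. Without replicate 2 of both 91 d groups 354 of 19007 genes were called (1.86%), of which 315 were among the 613. With replicate 3 of Golden Hills at 91 d also left out, 156 were.

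The balance between directions depends on scaling. Of the calls 62.3% were positive on the deposited scale, against 36.3% with TPM and 39.8% with scaling to library totals. These 2 scalings moved the median interaction of all genes to -0.13 and -0.11, so signs here are relative to the median gene. Scaling by the median of ratios between libraries stayed close to the deposited scale, with 630 calls, 63.0% of them positive, and a median interaction of 0.0. Of the 63 genes chosen for naming by rule, 0 changed sign under any of the 28 alternative settings, 61 were still called with TPM, 62 with library totals and 53 by voom on the recovered reads. The rule itself required a call of the same sign without replicate 2 of both 91 d groups, so that setting was fixed in advance. Values without those libraries given below for genes named by rule are therefore no separate support. The other settings share most of their libraries with the main fit. Without the 3 libraries of 91 d that held reads of the other cultivar, 34 of the 63 were called. Among the 29 lost were 2-MMP, the xyloglucan endotransglucosylase and NRT1/PTR FAMILY 2.13 (limma adjusted p = 0.0516, 0.0567 and 0.0667). Polygalacturonase inhibitor 1 and HLS1 were lost too (limma adjusted p = 0.0579 and 0.0546). So were HEADING DATE 3A (evm_TU_ptg000007l_1553) and the 18.5 kDa heat shock protein (limma adjusted p = 0.0802 and 0.0543). The 10 that voom did not call were purple acid phosphatase 22, PERK12, the acidic endochitinase, gibberellin-regulated protein 1, GIP2, the class IV heat shock protein, UGT74B1, lipid transfer protein GPI-anchored 5, bHLH162 and HEADING DATE 3A (evm_TU_ptg000007l_1553), each described below. Leaving out replicate 2 of intact Golden Hills at 133 d left 280 calls, the fewest for any single library, and leaving out replicate 3 of that group or of Lost Hills at 91 d left 400 in each case.

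**Figure D1:**
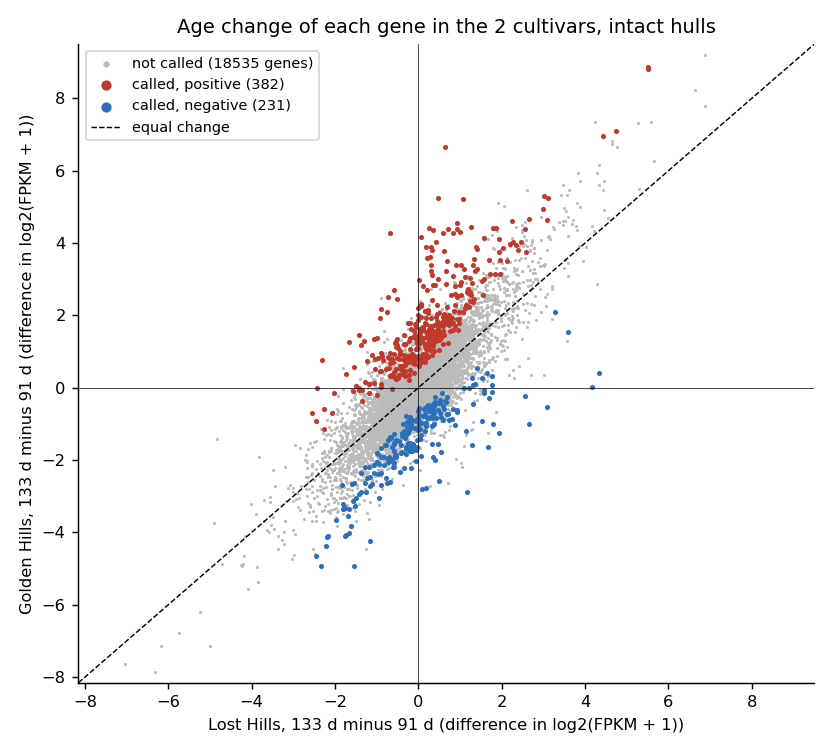
Age change of each tested gene in intact hulls, with Lost Hills on the horizontal and Golden Hills on the vertical axis, both as the difference in mean log2(FPKM + 1) between 133 d and 91 d. The 382 positive (red) and 231 negative (blue) calls lie above and below the line of equal change among 18535 genes that were not called (grey), and both kinds lie mainly on the side where the Golden Hills change is the larger.

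Which functions these were was read from gene lists made by words in the protein names. The lists are described by the share of their tested members that was called, beside 3.2% of all genes. The share was 26.9% for genes of phosphate supply, 20.7% for ethylene synthesis and signalling, 11.8% for ion transport and 11.1% for pectin. It was 3.92% for photosystem proteins, 2.81% for cell division and 2.12% for ribosomal proteins, near or under the background. The phosphate list was put together after the called genes had been seen, so its share describes it and supports nothing. The other lists were chosen with earlier results of these data known, so their shares are descriptions as well. No member was called by limma among 23 genes of chlorophyll metabolism, 28 of carotenoids, 44 of jasmonate and 12 of the kernel. At an unadjusted p under 0.05 these lists held 3, 4, 10 and 4 genes, and voom on the recovered reads also called 0 in each.

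**Figure D2:**
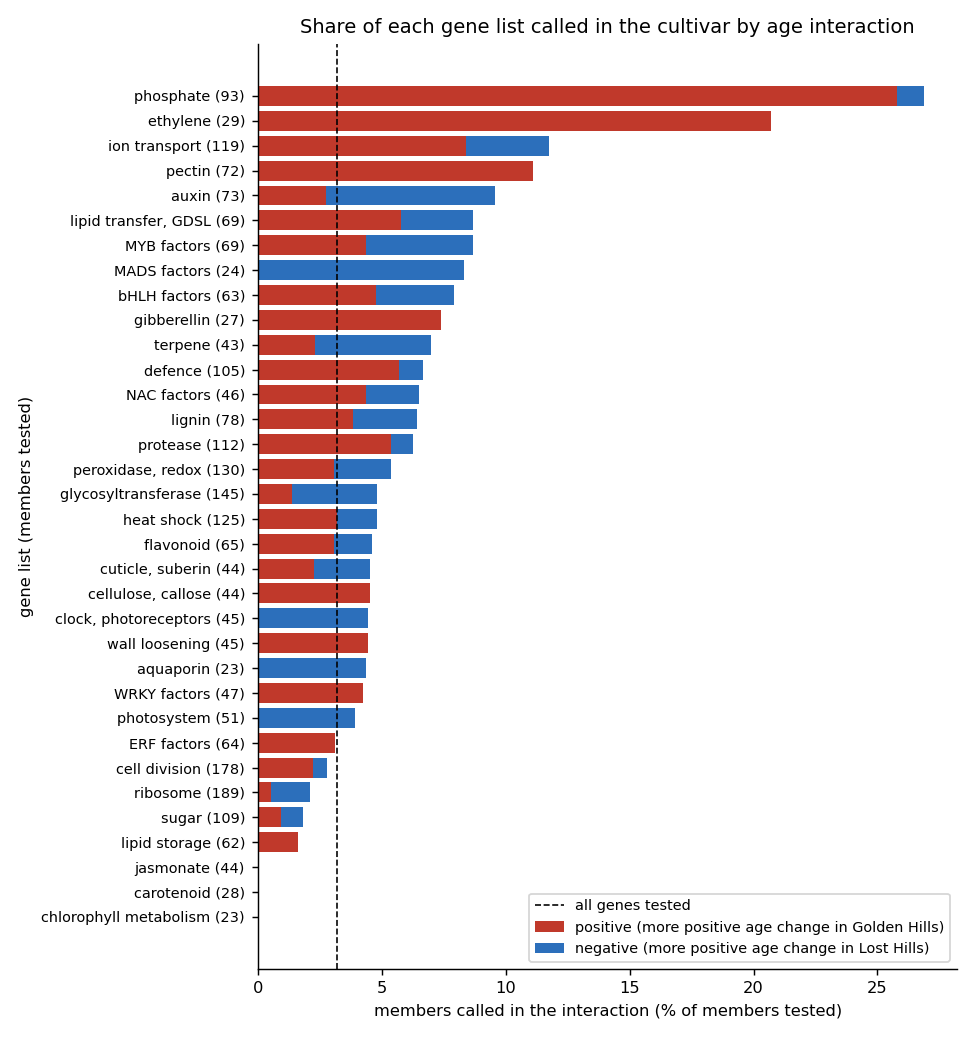
Share of the tested members of each gene list that was called in the cultivar by age interaction, split into positive (red) and negative (blue) values, with the number of tested members in parentheses and the share over all genes (3.2%) as a dashed line. Phosphate genes (26.9%, a list made after the values were seen) and ethylene genes (20.7%) stand highest, and chlorophyll metabolism, carotenoids and jasmonate have no called member.

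Genes for sensing, freeing and moving phosphate rose further in Golden Hills than in Lost Hills more often than the reverse: of 93 tested members 24 were called with a positive (background 1.99%) and 1 with a negative interaction (background 1.21%). The list was made after the called genes had been seen, and the median interaction over all 93 was 0.44, beside 0.00 over all genes tested. With age alone, 54 rose and 9 fell in Golden Hills (22.8% and 22.2% of all genes) and 22 rose and 6 fell in Lost Hills (15.8% and 15.7% of all genes). The positions of the 24 positive genes at 133 d follow in part from their choice, since 95.8% of all genes called positive were higher in each intact Golden Hills library of that age. All 24 were higher in each intact Golden Hills library than in each intact Lost Hills library at 133 d (17.8% of all genes tested). At 91 d the cultivars overlapped for 19 of the 24, where 12.7% of all genes did not overlap, and the Golden Hills mean was the lower for 17. In the split hulls, which entered no test, the tattered Golden Hills mean was above the cracked Lost Hills mean for all 24, and 19 did not overlap (22.2% of all genes). These hulls are of the same cultivars and age, so this order may also follow in part from the choice of the genes. It is no separate support. Without replicate 2 of both 91 d groups 18 members were called, and without replicate 2 of Golden Hills at 133 d 15 were, all of them positive. Of all genes 354 of 19007 and 280 of 19037 were called in these fits. The members described next, other than SPX3, purple acid phosphatase 22, GDPD1 of contig 19 and glycerol-3-phosphate transporter 1, were chosen after their values were seen.

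SPX proteins bind inositol pyrophosphates and hold the phosphate starvation regulators inactive while phosphate is ample, and their own genes are classical markers of low phosphate. SPX domain-containing protein 3 (evm_TU_ptg000019l_174, contig ptg000019l, 1061876 to 1063666) stood at 8.04, 7.37, 5.29 and 5.47 FPKM in the 4 Golden Hills libraries of 91 d and at 73.9, 213 and 184 in the 3 of 133 d. In Lost Hills it stood at 6.9, 7.83, 7 and 8.41 FPKM and at 12.8, 8.97 and 14.4. The cultivars were mixed at 91 d and fully apart at 133 d, where even the lowest Golden Hills library, replicate 1, was far above all of Lost Hills. The interaction was 3.68 (SE 0.41, limma adjusted p = 0.000443), with a 95% interval of 2.81 to 4.55, and 3.72 (limma adjusted p = 0.00369) without replicate 2 of both 91 d groups.

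SPX domain-containing protein 2 (evm_TU_ptg000001l_1526, contig ptg000001l, 19935820 to 19939035) started lower in Golden Hills. It stood at 31.9, 27.4, 17.6 and 22.6 FPKM in Golden Hills at 91 d against 92.2, 40.9, 73.8 and 51.3 in Lost Hills, and at 178, 483 and 519 against 79.7, 72.9 and 78.6 at 133 d. The order of the cultivars was thus reversed with age, without overlap at either age, and the interaction was 3.50 (SE 0.49, limma adjusted p = 0.00199). A further SPX2 gene (evm_TU_ptg000021l_979) went from 0.249 ± 0.0787 to 20.4 ± 14.6 FPKM in Golden Hills and from 0.0469 ± 0.0542 to 0.662 ± 0.574 in Lost Hills, with an interaction of 3.16 (limma adjusted p = 0.0117). That call was lost by voom on the recovered reads (2.95, limma adjusted p = 0.521) and with a pseudocount of 0.1 (limma adjusted p = 0.0559). SPX domain-containing protein 4 (evm_TU_ptg000003l_318), whose transcript in Arabidopsis is not induced by low phosphate, was the negative exception at -0.82 (limma adjusted p = 0.0378), a call lost without replicate 2 of both 91 d groups (limma adjusted p = 0.0737). The factors PHR1-LIKE 1, 2 and 3 had interactions of -0.30, -0.03 and 0.13 (limma adjusted p = 0.24, 0.977 and 0.646). Myb family transcription factor PHL5 (evm_TU_ptg000005l_286), counted in the MYB list and chosen after its values were seen, had 1.13 (limma adjusted p = 0.0294). That call was lost without replicate 2 of both 91 d groups (limma adjusted p = 0.0784). Ubiquitin-conjugating enzyme E2 24, which in Arabidopsis marks phosphate transporters for degradation, rose in both cultivars with an interaction of 0.67 (limma adjusted p = 0.313).

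Purple acid phosphatases, secreted or vacuolar enzymes that free phosphate from organic esters, gave some of the largest values. Purple acid phosphatase 22 (evm_TU_ptg000011l_177, contig ptg000011l, 5460496 to 5462439) stood at 0.187, 0.0489, 0.0465 and 0 FPKM in Golden Hills at 91 d and at 23, 52.9 and 50 at 133 d. Lost Hills had 0.104, 0.0918, 0.0503 and 0 FPKM and then 0.146, 0.465 and 0.849. It was near 0 in all libraries but those of Golden Hills at 133 d, and the interaction was 4.78 (SE 0.34, limma adjusted p = 1.61e-05). Purple acid phosphatase 17 (evm_TU_ptg000002l_169, contig ptg000002l, 1754944 to 1757663), a senescence- and starvation-induced enzyme in Arabidopsis, rose in both cultivars, from 19.1 ± 4.08 to 477 ± 249 FPKM in Golden Hills and from 46.8 ± 18.7 to 155 ± 14.5 in Lost Hills. Its interaction was 2.62 (SE 0.53, limma adjusted p = 0.0177), and the adjusted p was 0.0588 without replicate 2 of Golden Hills at 133 d. A purple acid phosphatase matched to soybean (evm_TU_ptg000020l_2532), purple acid phosphatase 23 (evm_TU_ptg000022l_1516) and probable inactive purple acid phosphatase 1 (evm_TU_ptg000024l_279) had interactions of 2.80, 1.89 and 1.10 (limma adjusted p = 0.00594, 0.000443 and 0.00213). The same family also held genes with hardly any difference, such as purple acid phosphatase 15 (evm_TU_ptg000019l_1422) at 0.03 (limma adjusted p = 0.957).

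Several genes for enzymes that replace phospholipids with sulfolipid and free the phosphate of lipid head groups went the same way, while others of these families did not pass. Glycerophosphodiester phosphodiesterase GDPD1, which cuts glycerophosphodiesters to glycerol-3-phosphate, was represented by a pair of called genes. That of contig 19 (evm_TU_ptg000019l_2952, contig ptg000019l, 28553819 to 28556707) stood at 15, 12.6, 10.6 and 21.8 FPKM in Golden Hills at 91 d and at 162, 465 and 469 at 133 d. In Lost Hills it stood at 14.4, 9.44, 24.4 and 31.4 FPKM and at 31.8, 12.2 and 26.9. Only the Golden Hills libraries of 133 d stood out, replicate 1 less than the other two, and the interaction was 4.15 (SE 0.64, limma adjusted p = 0.00363). That of contig 5 (evm_TU_ptg000005l_16, contig ptg000005l, 93998 to 98972) moved in opposite directions, from 32.8 ± 1.98 to 191 ± 19.1 FPKM in Golden Hills and from 34.9 ± 6.35 to 21.2 ± 7.18 in Lost Hills. Both age changes were called, at 2.50 (limma adjusted p = 5.7e-07) and -0.74 (limma adjusted p = 0.0131), and the interaction was 3.24 (SE 0.28, limma adjusted p = 7.21e-05).

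Sulfoquinovosyl transferase SQD2 (evm_TU_ptg000027l_328, contig ptg000027l, 2420678 to 2426675), the last step of sulfolipid synthesis, stood at 14.5, 11.3, 12.2 and 13.3 FPKM in Golden Hills at 91 d and at 80.3, 203 and 186 at 133 d. Lost Hills had 18.2, 11.1, 16.7 and 15.8 and then 18.1, 20.5 and 18.9 FPKM. The Lost Hills values at both ages lay near those of Golden Hills at 91 d, and the interaction was 3.09 (SE 0.36, limma adjusted p = 0.000612). UDP-sulfoquinovose synthase (evm_TU_ptg000001l_1574), the step before it, rose in both cultivars, from 7.97 ± 0.745 to 30.6 ± 7.24 FPKM in Golden Hills and from 8.59 ± 1.16 to 15.9 ± 0.787 in Lost Hills. Its interaction was 0.97 (limma adjusted p = 0.0246), with an adjusted p of 0.0579 without replicate 2 of both 91 d groups. Phospholipase D zeta 1 (evm_TU_ptg000007l_156), which hydrolyses phospholipids under low phosphate in roots, went from 0.832 ± 0.404 to 11.8 ± 1.34 FPKM in Golden Hills and from 0.765 ± 0.0904 to 1.26 ± 0.345 in Lost Hills (interaction 2.48, limma adjusted p = 0.000233). Another gene of that name (evm_TU_ptg000022l_2365), better read at 91 d (means of 19.8 and 19.1 FPKM), had 0.09 (limma adjusted p = 0.778). The other phospholipase D and non-specific phospholipase C genes ranged from -1.28 (phospholipase D beta 1, limma adjusted p = 0.0897) to 0.95 (phospholipase C3, limma adjusted p = 0.0538). Of these only phospholipase C6 was called, at 0.57 (limma adjusted p = 0.0358, and 0.088 without replicate 2 of both 91 d groups). Monogalactosyldiacylglycerol synthase 2 and digalactosyldiacylglycerol synthase 2, which make galactolipids, rose with age in Golden Hills but were not called in the interaction, at 1.24 and 0.70 (limma adjusted p = 0.131 and 0.1).

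Among the transporters, putative glycerol-3-phosphate transporter 1 (evm_TU_ptg000004l_894, contig ptg000004l, 12510459 to 12513432) had 14.9, 25.8, 15.5 and 15.3 FPKM in Golden Hills at 91 d and 139.6, 231 and 271 at 133 d, against 48.7, 31.1, 45.1 and 42.5 and 65.1, 78.7 and 59.2 in Lost Hills. It was lower in Golden Hills at 91 d and higher at 133 d without overlap, and the interaction was 2.80 (SE 0.33, limma adjusted p = 0.00073). Phosphate transporter PHO1 (evm_TU_ptg000022l_1711), which exports phosphate to the vascular stream, rose in both cultivars, from 0.835 ± 0.47 to 20 ± 2.41 FPKM in Golden Hills and from 1.44 ± 0.306 to 6.91 ± 1.4 in Lost Hills (interaction 1.85, limma adjusted p = 0.00258). Inorganic pyrophosphatase 2 (evm_TU_ptg000021l_54) went from 0.0856 ± 0.0724 to 13 ± 6.18 FPKM in Golden Hills and stayed at 1.54 ± 2.18 and 1.41 ± 0.468 in Lost Hills (interaction 3.36, limma adjusted p = 0.0115, and an adjusted p of 0.0515 with all 20 libraries in the fit), while its neighbour of the same name (evm_TU_ptg000021l_55) was not called, at -0.29 (limma adjusted p = 0.754). Of the uptake carriers, probable inorganic phosphate transporter 1-9 (evm_TU_ptg000016l_910) went from 0.0245 ± 0.0307 to 4.6 ± 1.18 FPKM in Golden Hills and from 0.0253 ± 0.0321 to 0.288 ± 0.192 in Lost Hills, with an interaction of 2.11 (limma adjusted p = 0.000408). The far more abundant inorganic phosphate transporter 1-4 (evm_TU_ptg000019l_1610) went from 56.6 ± 16.2 to 158 ± 34.1 FPKM and from 41 ± 8.59 to 59.8 ± 9.35, but its interaction did not pass, at 0.93 (limma adjusted p = 0.126).

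**Figure D3:**
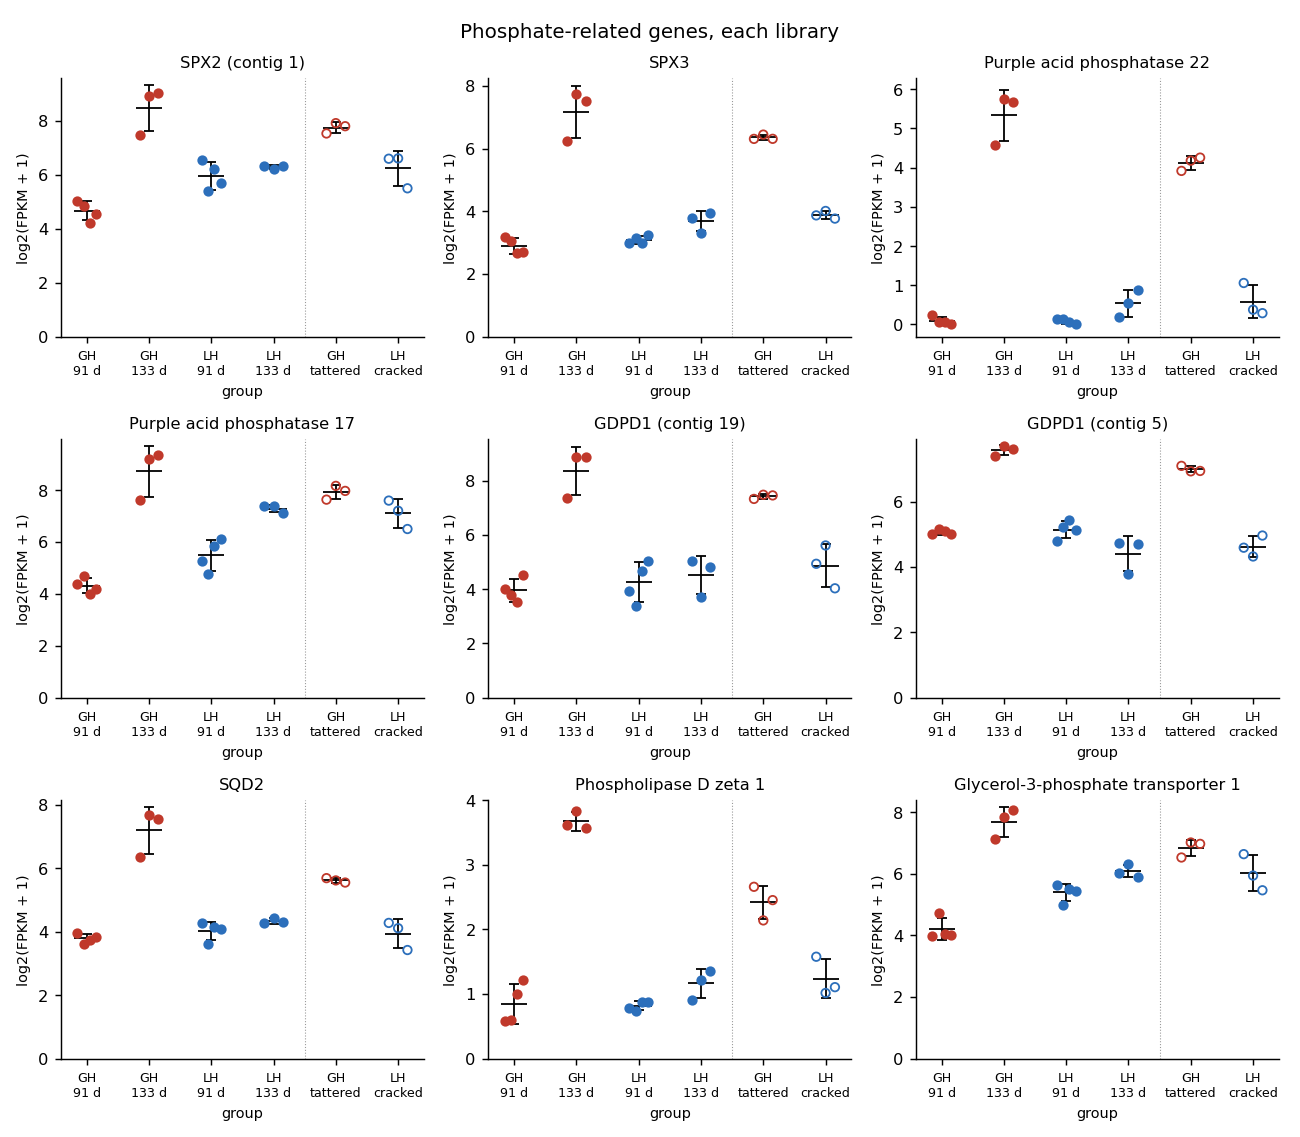
Level of 9 genes of phosphate supply as log2(FPKM + 1) in each library, with Golden Hills (GH) in red and Lost Hills (LH) in blue, intact hulls filled and split hulls open, and mean ± SD in black. In each panel the intact Golden Hills libraries of 133 d stand above those of Lost Hills, and replicate 1 of that group is the lowest of the 3 in 8 of the 9 panels.

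Sulfate and nitrate carriers were called with both signs among the 14 called members of the ion transport list (10 positive and 4 negative), which also took in the carriers of phosphate and glycerol-3-phosphate described above. Sulfate transporter 3.1 (evm_TU_ptg000019l_3154, contig ptg000019l, 30585883 to 30590671), a chloroplast sulfate carrier, stood at 1.34, 1.35, 2.7 and 4.02 FPKM in Golden Hills at 91 d and at 84, 30.2 and 37.7 at 133 d. Lost Hills had 8.68, 2.34, 6.49 and 5.34 and then 3.39, 6.16 and 10.6 FPKM. The cultivars overlapped at 91 d and were apart at 133 d, and the interaction was 3.69 (SE 0.62, limma adjusted p = 0.00602). Protein NRT1/PTR FAMILY 2.13 (evm_TU_ptg000024l_612), a nitrate transporter, rose in both cultivars, from 6.42 ± 2.31 to 83.4 ± 14.8 FPKM in Golden Hills and from 13.2 ± 4.85 to 32.7 ± 2.05 in Lost Hills (interaction 2.22, limma adjusted p = 0.00971). The remaining genes of this paragraph were chosen after their values were seen. Sulfate transporter 4.1 (evm_TU_ptg000009l_536) rose further in Golden Hills (interaction 1.22, limma adjusted p = 0.00432, and 0.0205 without replicate 2 of both 91 d groups). Vacuolar iron transporter homolog 1 and probable potassium transporter 13 were also called positive, but not without those libraries. The other 2 called genes of the nitrate carrier family and 1 sulfate carrier were negative. Protein NRT1/PTR FAMILY 4.6 (evm_TU_ptg000010l_503) went from a mean of 3.86 to 0.65 FPKM in Golden Hills and from 2.86 to 4.27 in Lost Hills (interaction -2.05, limma adjusted p = 0.0036, and 0.0107 without replicate 2 of both 91 d groups). Protein NRT1/PTR FAMILY 1.2 (evm_TU_ptg000001l_1703) went from 9.7 to 1.35 FPKM and from 4.78 to 2.88 (interaction -1.58, limma adjusted p = 0.0184, and 0.0278 without those libraries). Low affinity sulfate transporter 3 (evm_TU_ptg000001l_3163) fell in both cultivars, with an interaction of -0.87 (limma adjusted p = 0.0135) that was lost without them (limma adjusted p = 0.0579). Metallothionein-like protein 2 (evm_TU_ptg000016l_631), a metal-binding protein also chosen after its values were seen, fell from a mean of 2916 to 293 FPKM in Golden Hills and from 4017 to 1186 in Lost Hills, with an interaction of -1.50 (limma adjusted p = 0.0272) that did not hold without replicate 2 of both 91 d groups (limma adjusted p = 0.094). Without those libraries 9 members of the list were called, and without replicate 2 of Golden Hills at 133 d 8 were. Of all genes 354 of 19007 and 280 of 19037 were called in these fits.

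In ethylene signalling most of the called genes moved in opposite directions in the 2 cultivars, by the sign of the estimates. Of 29 tested members 6 were called, all positive, and 5 of these 6 were higher with age in Golden Hills and lower in Lost Hills. The median interaction of the whole list was 0.04, and with TPM or library totals -0.07 and -0.05. With age, 10 members rose and 3 fell in Golden Hills (22.8% and 22.2% of all genes) and 4 rose and 10 fell in Lost Hills (15.8% and 15.7% of all genes). Leaving out replicate 2 of both 91 d groups kept 5 of the 6 calls, beside 315 of the 613 calls over all genes.

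Ethylene receptor 2 (evm_TU_ptg000022l_2191, contig ptg000022l, 26946148 to 26950802), a receptor whose gene is induced by ethylene in Arabidopsis, stood at 59.7, 59.7, 41.1 and 46.8 FPKM in Golden Hills at 91 d and at 123, 153 and 131 at 133 d. In Lost Hills it fell from 78.7, 76.7, 103 and 84.4 FPKM to 52.2, 26.4 and 54.5. Golden Hills was the lower cultivar at 91 d and the higher at 133 d, without overlap at either age, and both age changes were called, at 1.38 (limma adjusted p = 0.000194) and -0.99 (limma adjusted p = 0.00383). The interaction was 2.37 (SE 0.31, limma adjusted p = 0.00153) and 2.50 (limma adjusted p = 0.00528) without replicate 2 of both 91 d groups. In the split hulls it stood at 144, 120.1 and 142 FPKM in tattered Golden Hills and at 41.5, 37.6 and 58.5 in cracked Lost Hills, again without overlap.

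EIN3-binding F-box protein 2, which marks the ethylene transcription factor EIN3 for degradation, was matched by a pair of genes that both crossed over. The gene evm_TU_ptg000001l_1535 stood at 36.7, 35.8, 32.8 and 28.6 FPKM in Golden Hills at 91 d and at 108, 90.8 and 66.8 at 133 d, against 80, 57.5, 79.6 and 59.4 and 27.8, 24 and 49.8 in Lost Hills. Golden Hills rose and Lost Hills fell, with no overlap at either age, and the interaction was 2.42 (SE 0.32, limma adjusted p = 0.00153). The gene evm_TU_ptg000001l_2106 went from 99.3 ± 10 to 187 ± 48.4 FPKM in Golden Hills and from 159 ± 17.4 to 87.1 ± 19.8 in Lost Hills (interaction 1.76, limma adjusted p = 0.00288). The remaining called members were chosen after their values were seen. Ethylene response sensor 1 (evm_TU_ptg000019l_868), another receptor, went from 86.4 ± 8.77 to 142 ± 4.29 FPKM against 124 ± 16.4 to 82.1 ± 19.9 in Lost Hills (interaction 1.33, limma adjusted p = 0.00587). A gene for the kinase CTR1 (evm_TU_ptg000009l_806), which acts just below the receptors, had an interaction of 0.64 (limma adjusted p = 0.0491), with an adjusted p of 0.0599 without the replicate 2 libraries. The other tested genes matched to CTR1 were not called, at 0.50, 0.29, -0.04 and -0.79 (limma adjusted p = 0.395, 0.601, 0.941 and 0.218). A weakly read gene matched to EIN2 (evm_TU_ptg000003l_1383), the membrane protein below CTR1, had 1.37 (limma adjusted p = 0.0116), and rose in Golden Hills from 0.55 to 4.27 FPKM. The better-read EIN2 gene (evm_TU_ptg000027l_766), at means of 50.9 FPKM in Golden Hills and 44.3 in Lost Hills at 91 d, had 0.01 (limma adjusted p = 0.981).

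The rest of the pathway did not pass. A gene for EIN3 itself (evm_TU_ptg000009l_986) fell alike in both cultivars, from 131 to 75 FPKM in Golden Hills and from 135 to 75.7 in Lost Hills, with an interaction of 0.03 (SE 0.16, limma adjusted p = 0.946). The enzymes of ethylene synthesis were not called. The synthase of aminocyclopropane carboxylate (evm_TU_ptg000010l_334) had an interaction of -1.13 (SE 0.52, limma adjusted p = 0.261). The oxidase with the highest mean level in Golden Hills at 91 d (evm_TU_ptg000019l_1831) had -0.41 (SE 0.69, limma adjusted p = 0.795), and both were measured with little precision.

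**Figure D4:**
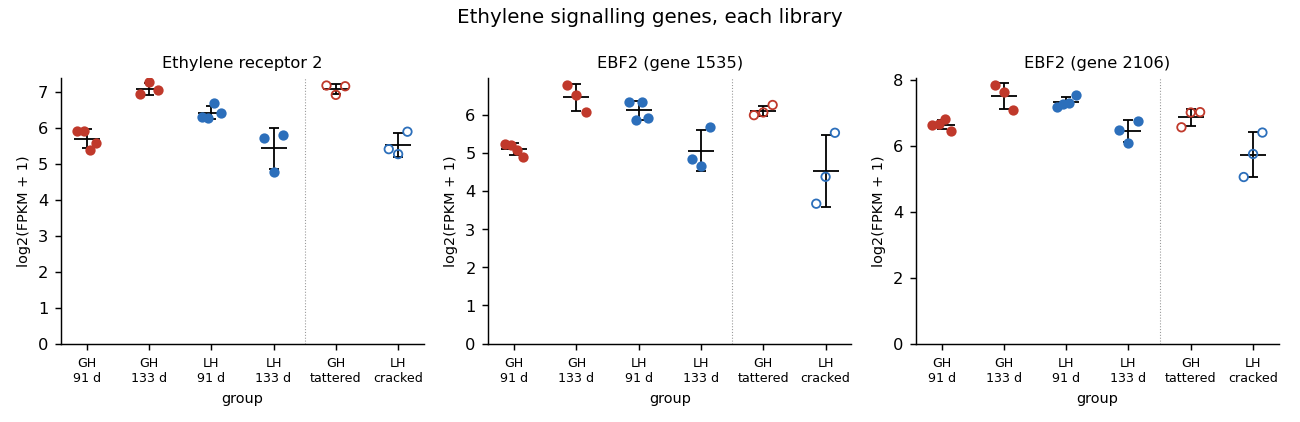
Level of 3 ethylene signalling genes as log2(FPKM + 1) in each library, coloured by cultivar (Golden Hills red, Lost Hills blue), with intact hulls filled, split hulls open and mean ± SD in black. In all 3 panels intact Golden Hills rises and intact Lost Hills falls between 91 d and 133 d.

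Other genes with the largest positive interactions included some with few or no reads in either cultivar at 91 d. A GDSL lipase (evm_TU_ptg000012l_365, contig ptg000012l, 11055569 to 11058368), a member of a large family of secreted esterases, had the largest value. It stood at 0.2, 0.0523, 0.0497 and 0.0542 FPKM in Golden Hills at 91 d and at 122, 105 and 101 at 133 d, while in Lost Hills it was at 0 in all 4 libraries of 91 d and at 0, 0.0553 and 2.56 at 133 d. The interaction was 6.02 (SE 0.46, limma adjusted p = 2.21e-05), and it was called under all 28 settings. In the split hulls it stood at 186, 147 and 138 FPKM in tattered Golden Hills and at 0.579, 0.159 and 0.176 in cracked Lost Hills.

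The 14 kDa proline-rich protein DC2.15 (evm_TU_ptg000010l_1098, contig ptg000010l, 17936502 to 17936918), a hybrid proline-rich protein first known from carrot, had no read in any library of 91 d. At 133 d it stood at 16.1, 17.8 and 17.2 FPKM in Golden Hills, at least 37.9-fold higher than at 91 d if 3 reads per library are taken as the floor, and at 0, 0 and 0.133 in Lost Hills. Its interaction was 4.11 (SE 0.16, limma adjusted p = 9.81e-09), and 2 genes of the same name lie within 10 genes of it, between which reads may be shared. The receptor-like kinase PERK12 (evm_TU_ptg000001l_3424) went from 0.0123 ± 0.0143 to 39.8 ± 17.3 FPKM in Golden Hills and from 0.031 ± 0.062 to 1.34 ± 1.02 in Lost Hills (interaction 4.16, limma adjusted p = 0.000443). Metalloendoproteinase 2-MMP (evm_TU_ptg000003l_70), a protease of the extracellular matrix, went from 4.21 ± 1.37 to 86.8 ± 38.4 FPKM and from 3.15 ± 1.11 to 5.53 ± 4.98 (interaction 3.61, limma adjusted p = 0.00482). It was read in every library of both ages, and stood at 24.2, 5.08 and 66.9 FPKM in cracked Lost Hills.

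The called members of the pectin list (8 of 72 tested, 11.1%), the wall loosening list (2 of 45, 4.44%) and the cellulose and callose list (2 of 44, 4.55%) had positive interactions, beside 3.2% of all genes called and 62.3% of all calls positive. The latter 2 shares were near the background. A probable xyloglucan endotransglucosylase/hydrolase (evm_TU_ptg000009l_1174, contig ptg000009l, 12933201 to 12935194), matched to azuki bean and of a family that cuts and rejoins the xyloglucan tethers of the wall, stood at 51.8, 51, 66.5 and 28.5 FPKM in Golden Hills at 91 d and at 594, 408 and 865 at 133 d. Lost Hills had 35, 42.3, 82.8 and 24.8 and then 24.8, 72.5 and 72.8 FPKM. The age groups of Lost Hills overlapped, and those of Golden Hills were far apart. The interaction was 3.34 (SE 0.62, limma adjusted p = 0.0114) and 3.37 (limma adjusted p = 0.0371) without replicate 2 of both 91 d groups. With replicate 3 of Golden Hills at 91 d also left out it was 3.63 and no longer called (limma adjusted p = 0.0567). It was 1 of 2 called among 45 tested genes of wall loosening, whose median age change was 0.69 in Golden Hills and 0.00 in Lost Hills.

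Of 72 tested pectin genes 8 were called, all positive, against 7 positive and 1 negative with TPM. The count was 3 without replicate 2 of both 91 d groups and 0 when replicate 3 of Golden Hills at 91 d was left out as well. Calls over all genes fell too, to 354 of 19007 and 156 of 18878. Leaving out single libraries left 4 calls without replicate 3 of Golden Hills or replicate 1 of Lost Hills at 91 d, and 5 without replicate 4 of Golden Hills or replicate 3 of Lost Hills at 91 d. It left 5 and 3 without replicates 2 and 3 of Golden Hills at 133 d. Over all genes these single-library fits gave 280 to 454 calls, against 613 in the main fit. Polygalacturonase inhibitor 1 (evm_TU_ptg000019l_1249, contig ptg000019l, 8210119 to 8211337), an inhibitor of the pectin-cutting enzymes of pathogens and not itself a pectinase, rose from 35.3 ± 9.2 to 563 ± 36.2 FPKM in Golden Hills and from 54.3 ± 18.3 to 245 ± 12.8 in Lost Hills (interaction 1.78, limma adjusted p = 0.00602). Pectin acetylesterase 3 (evm_TU_ptg000019l_690), which removes acetyl groups from pectin, rose from 19.1 ± 1.45 to 74.6 ± 7.03 and from 21.8 ± 2.04 to 43 ± 7.56 (interaction 0.97, limma adjusted p = 0.00965). A beta-galactosidase (evm_TU_ptg000001l_1184) and polygalacturonase QRT3 (evm_TU_ptg000017l_299), chosen after their values were seen, rose in both cultivars and had interactions of 1.49 and 2.51 (limma adjusted p = 0.0325 and 0.0214), which did not hold without the replicate 2 libraries (limma adjusted p = 0.085 and 0.0678). Both called members of the cellulose and callose list, 44 tested, were cellulose synthase-like. Cellulose synthase-like protein G3 (evm_TU_ptg000010l_175) rose from 8.44 ± 2.68 to 94.5 ± 12.1 FPKM in Golden Hills and from 6.03 ± 0.747 to 13.8 ± 5.25 in Lost Hills (interaction 2.37, limma adjusted p = 0.00399), and protein B4 (evm_TU_ptg000019l_1870) from 2.08 ± 0.437 to 67 ± 20.2 and from 4.24 ± 1 to 18.8 ± 7.48 (interaction 2.56, limma adjusted p = 0.00288). Each has neighbours of its name within 10 genes.

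The largest negative interactions belonged to genes that rose in Lost Hills, fell in Golden Hills, or both. A gene matched to HEADING DATE 3A (evm_TU_ptg000007l_1553, contig ptg000007l, 19452968 to 19455530), the florigen of rice and an orthologue of Arabidopsis FT, stood at 6.52, 3.18, 1.55 and 9.96 FPKM in Lost Hills at 91 d and at 56.3, 187 and 86.2 at 133 d. In Golden Hills it stood at 2.07, 5.55, 1.34 and 1.07 and at 0.667, 2.61 and 4.31 FPKM. It was low in all groups but Lost Hills at 133 d, and the interaction was -4.15 (SE 0.79, limma adjusted p = 0.0131). A near neighbour of the same name (evm_TU_ptg000007l_1550) fell in Golden Hills instead, from 76.9 ± 37.9 to 9.82 ± 4.11 FPKM, and stayed at 128 ± 28.5 and 144 ± 26.2 in Lost Hills (interaction -2.96, limma adjusted p = 0.00399). These copies lie close together, so reads may have been divided between them.

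Peroxidase 17 (evm_TU_ptg000013l_1099, contig ptg000013l, 16008325 to 16010092), a secreted peroxidase linked to lignin in Arabidopsis, stood at 119, 48.7, 42.3 and 67.3 FPKM in Golden Hills at 91 d and fell to 3.65, 7.21 and 16.9 at 133 d. In Lost Hills it went from 32, 48.2, 40.6 and 45.4 to 111, 94.6 and 77.8 FPKM. The cultivars overlapped at 91 d and were apart at 133 d, with both age changes called, at -2.88 (limma adjusted p = 5.36e-05) and 1.17 (limma adjusted p = 0.0365). The interaction was -4.04 (SE 0.56, limma adjusted p = 0.00187).

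Probable trehalose-phosphate phosphatase J (evm_TU_ptg000013l_101, contig ptg000013l, 1047917 to 1050341), which makes trehalose from the sugar signal trehalose-6-phosphate, stood at 11.8, 20.8, 20.8 and 19.3 FPKM in Lost Hills at 91 d and at 142, 120.4 and 95.1 at 133 d. In Golden Hills it stood at 61.1, 32.2, 16.7 and 24.8 and at 22.3, 7.71 and 17.8 FPKM. The Lost Hills rise was called, and the Golden Hills libraries of both ages overlapped although their difference just passed (limma adjusted p = 0.0497). The interaction was -3.66 (SE 0.55, limma adjusted p = 0.00331).

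Endochitinase EP3 (evm_TU_ptg000022l_419), which cuts chitin and related polymers, fell in both cultivars, from 128 ± 52.4 to 3.23 ± 1.91 FPKM in Golden Hills and from 94.4 ± 18.3 to 32.7 ± 12.6 in Lost Hills (interaction -3.39, limma adjusted p = 0.00187). Probable N-acetyltransferase HLS1 (evm_TU_ptg000012l_510), the HOOKLESS1 regulator of differential growth, rose in Lost Hills from 1.38 ± 0.964 to 12.9 ± 4.76 FPKM and stood at 0.714 ± 0.132 and 0.526 ± 0.604 in Golden Hills (interaction -2.79, limma adjusted p = 0.00456). Monothiol glutaredoxin-S9 (evm_TU_ptg000019l_983), a small redox protein, rose from 11.2 ± 2.75 to 41.3 ± 12.4 in Lost Hills and fell from 13.3 ± 3.65 to 6.15 ± 1.89 in Golden Hills (interaction -2.77, limma adjusted p = 0.00169). In cracked Lost Hills hulls its level was 14, 15 and 8.99 FPKM, near that of 91 d.

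**Figure D5:**
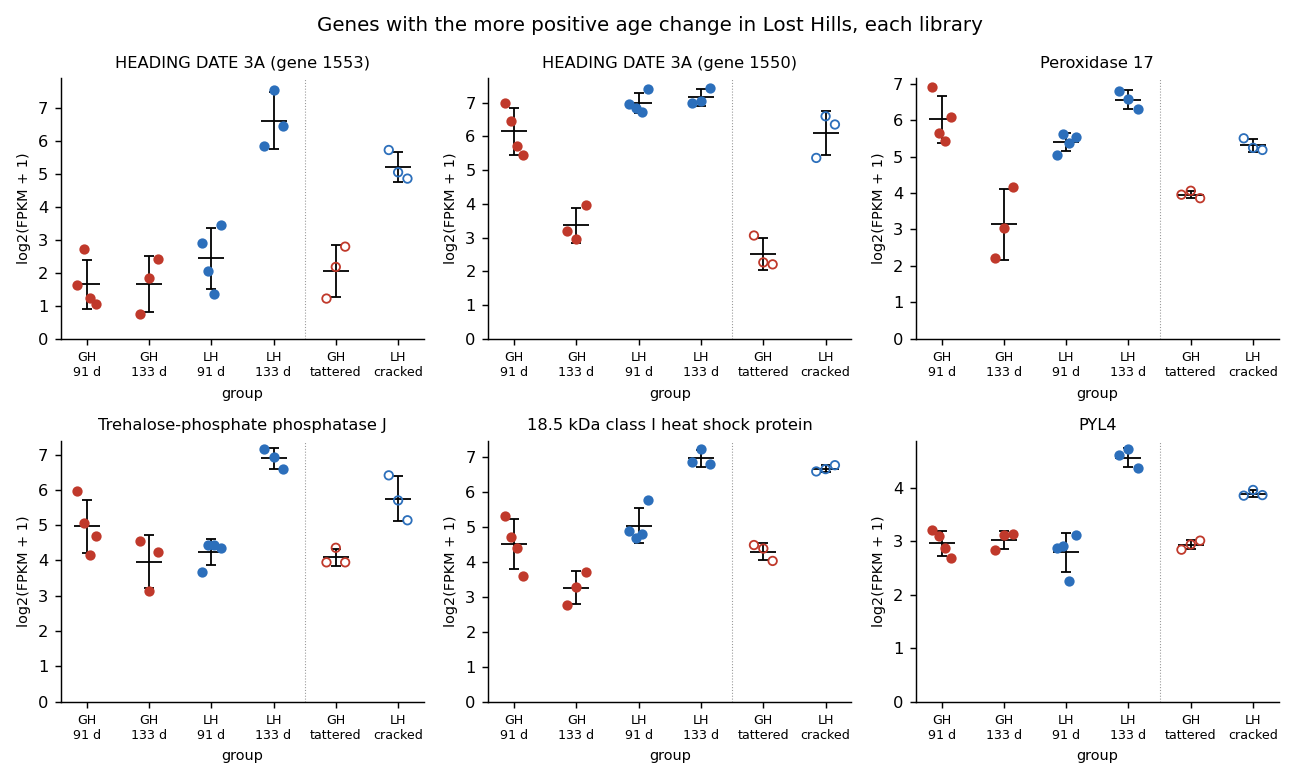
Level of 6 genes with a negative interaction as log2(FPKM + 1) in each library, with Golden Hills (GH) in red and Lost Hills (LH) in blue, intact hulls filled and split hulls open, and mean ± SD in black. In each panel the intact Lost Hills libraries of 133 d stand above all intact Golden Hills libraries of 133 d, through a rise in Lost Hills, a fall in Golden Hills or both.

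Among hormone genes outside the ethylene list, calls had both signs. The abscisic acid receptor PYL4 (evm_TU_ptg000009l_128, contig ptg000009l, 852828 to 853757) stood at 6.31, 6.48, 3.79 and 7.66 FPKM in Lost Hills at 91 d and at 23.3, 25.3 and 19.5 at 133 d. In Golden Hills it stood at 8.17, 7.5, 6.29 and 5.4 and at 6.09, 7.61 and 7.71 FPKM. It rose in Lost Hills without overlap, by 1.77 (limma adjusted p = 1.94e-05), while the Golden Hills libraries of both ages overlapped, at 0.06 (limma adjusted p = 0.816), and the interaction was -1.71 (SE 0.27, limma adjusted p = 0.00404). It was the only called member among 19 tested abscisic acid genes (5.26%, near the 3.2% of all genes). Of 73 auxin genes 7 were called (9.59%, beside 3.2% of all genes), 5 negative (1.21% of all genes) and 2 positive (1.99%), a count that fell to 3 when replicate 2 of both 91 d groups was left out. Over all genes the calls fell from 613 to 354 in that fit. The auxin repressor IAA27 (evm_TU_ptg000001l_1337) fell from 7.46 ± 0.993 to 1.27 ± 0.577 FPKM in Golden Hills and stood at 7.26 ± 1.97 and 9.35 ± 1 in Lost Hills (interaction -2.28, limma adjusted p = 0.000992). The small auxin-induced protein SAUR36 (evm_TU_ptg000019l_192), linked to leaf senescence in Arabidopsis, fell from 34.6 ± 4.83 to 16.8 ± 3.3 in Golden Hills and stood at 24.9 ± 5.97 and 32.5 ± 6.41 in Lost Hills (interaction -1.39, limma adjusted p = 0.016, with an adjusted p of 0.054 without replicate 2 of Golden Hills at 133 d). Gibberellin-regulated protein 1 (evm_TU_ptg000024l_682, contig ptg000024l, 6731407 to 6732141), a small secreted peptide, had among the largest age changes in both cultivars. It rose from 2.62, 0.767, 0.208 and 2.04 to 1005, 973 and 1087 FPKM in Golden Hills and from 0.585, 0.206, 2.48 and 0.766 to 45.9, 87.7 and 142 in Lost Hills. The cultivars overlapped at 91 d and stood far apart at 133 d, with an interaction of 3.35 (SE 0.60, limma adjusted p = 0.00956).

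Called heat shock genes had both signs. Of 125 tested 6 were called (4.8%, near the 3.2% of all genes), 4 positive and 2 negative. Without replicate 2 of both 91 d groups the numbers were the same, beside 1.86% of all genes. Heat shock protein 90-1 (evm_TU_ptg000010l_341, contig ptg000010l, 9371511 to 9374175), a cytosolic chaperone, stood at 11, 10.5, 10.4 and 10.3 FPKM in Golden Hills at 91 d and at 25, 34.4 and 24 at 133 d, against 16.6, 10.8, 33.3 and 15.7 and 8.4, 4.59 and 6.86 in Lost Hills. The cultivars overlapped at 91 d and were apart at 133 d, after a rise in Golden Hills and a fall in Lost Hills, and the interaction was 2.62 (SE 0.39, limma adjusted p = 0.00333). The class IV small heat shock protein (evm_TU_ptg000001l_4585), matched to soybean, rose in both, from 0.481 ± 0.246 to 184 ± 47.5 and from 0.857 ± 0.523 to 43.5 ± 27.1 FPKM (interaction 2.51, limma adjusted p = 0.0129). The class I protein of 18.5 kDa (evm_TU_ptg000009l_339), also matched to soybean, did the reverse of HSP90-1. It stood at 38.6, 25.1, 20.1 and 11 FPKM in Golden Hills at 91 d and at 5.76, 8.73 and 12 at 133 d, and rose in Lost Hills from 28.6, 24.3, 26.5 and 53 to 113, 148 and 109.6, with an interaction of -3.18 (SE 0.50, limma adjusted p = 0.00427).

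Defence and protease genes were called in both directions. Of 105 defence genes 6 were called positive and 1 negative (6.67% in all), and of 112 proteases 6 positive and 1 negative (6.25%). Of all genes 3.2% were called, and 62.3% of these calls were positive, or 36.3% with TPM, while the median interactions of these lists were -0.16 and 0.21. An acidic endochitinase (evm_TU_ptg000019l_498, contig ptg000019l, 3112466 to 3113594), matched to tobacco and with 6 genes of the same name close by, was higher in Golden Hills at both ages. It rose from 4.28, 3.49, 6.98 and 4.37 to 129, 145 and 87.2 FPKM in Golden Hills, and stood at 0.667, 2, 0.107 and 0 and at 1.09, 1.38 and 3.99 in Lost Hills, with an interaction of 3.47 (SE 0.53, limma adjusted p = 0.00356). Voom on the recovered reads put it at 1.87 with a limma adjusted p of 0.41. Glucan endo-1,3-beta-glucosidase 11 (evm_TU_ptg000001l_3013) had an interaction of 1.54 (limma adjusted p = 0.0332), which was lost when any 1 of 7 libraries was left out, with adjusted p up to 0.0957. Probable aspartic proteinase GIP2 (evm_TU_ptg000019l_3237), matched to Nicotiana benthamiana, rose from 0.312 ± 0.147 to 25.6 ± 8.18 FPKM in Golden Hills and from 0.0988 ± 0.17 to 1.25 ± 0.643 in Lost Hills (interaction 3.29, limma adjusted p = 0.00024). An aspartic proteinase matched to pumpkin (evm_TU_ptg000017l_2330) rose from 6.26 ± 0.879 to 12.8 ± 2.47 FPKM in Golden Hills and fell from 5.81 ± 0.179 to 3.67 ± 1.13 in Lost Hills (limma adjusted p of the interaction = 0.0056). ASPARTIC PROTEASE IN GUARD CELL 1 (evm_TU_ptg000002l_663) had an interaction of 1.12 (limma adjusted p = 0.0156).

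Genes of phenolic, terpenoid and redox metabolism showed both signs. Terpene synthase 10 (evm_TU_ptg000017l_802, contig ptg000017l, 13798038 to 13801987), matched to castor bean, stood at 9.69, 11.3, 17 and 14.4 FPKM in Golden Hills at 91 d and at 6.72, 6.02 and 6.04 at 133 d, against 6.35, 9.2, 4.01 and 7.58 and 13.1, 22.8 and 29.5 in Lost Hills. It fell in Golden Hills and rose in Lost Hills without overlap between the cultivars at either age, and the interaction was -2.46 (SE 0.38, limma adjusted p = 0.00391). Of 43 terpene genes 3 were called (6.98%, beside 3.2% of all genes), 2 of them negative. Dirigent protein 21 (evm_TU_ptg000011l_596), of a family that steers the coupling of monolignols, rose from 5.28 ± 1.34 to 25.1 ± 5.37 FPKM in Golden Hills and stood at 6.24 ± 1.76 and 7.31 ± 1.1 in Lost Hills (interaction 1.84, limma adjusted p = 0.0049). Caffeic acid 3-O-methyltransferase 1 (evm_TU_ptg000010l_64), matched to aspen and a step towards syringyl lignin, had -1.21 (limma adjusted p = 0.0133). A probable glutathione S-transferase (evm_TU_ptg000009l_1779) fell from 21.7 ± 4.68 to 3.84 ± 0.75 in Golden Hills and stood at 13.8 ± 2.06 and 13.9 ± 10.1 in Lost Hills (interaction -2.05, limma adjusted p = 0.0221, and an adjusted p of 0.0518 without replicate 1 of Golden Hills at 133 d). A probable transmembrane ascorbate ferrireductase (evm_TU_ptg000024l_1311) fell in both, further in Lost Hills (interaction 1.55, limma adjusted p = 0.012). Of 145 sugar-conjugating glycosyltransferases 7 were called, at 4.83% near the background of 3.2%. UDP-glycosyltransferase 74B1 (evm_TU_ptg000024l_683), which in Arabidopsis acts in glucosinolate synthesis and here lies next to the gene of gibberellin-regulated protein 1, rose from 2 ± 0.789 to 115 ± 39.1 and from 0.959 ± 0.0771 to 17.1 ± 8.34 FPKM (interaction 2.13, limma adjusted p = 0.0133). UDP-glycosyltransferases 73C25 (evm_TU_ptg000027l_907) and 86A1 (evm_TU_ptg000027l_815) had -1.41 and -1.01 (limma adjusted p = 0.0163 and 0.00965). Of 65 flavonoid genes 3 were called (4.62%, beside 3.2% of all genes), of which 0 were also called without the replicate 2 libraries, and voom called 0. Of the 613 calls over all genes 315 were also called without those libraries and 391 by voom.

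Lipid genes included the GDSL lipase above and the GPI-anchored lipid transfer proteins evm_TU_ptg000022l_2034 and evm_TU_ptg000010l_1141, which rose further in Golden Hills (interactions 1.57 and 0.94, limma adjusted p = 0.0222 and 0.0142). The former had an adjusted p of 0.0667 without replicate 2 of Golden Hills at 133 d. A stearoyl carrier protein desaturase (evm_TU_ptg000022l_323), matched to castor bean and with 5 genes of its name close by, had no read in any library of 91 d and stood at 3.76, 12.5 and 6.44 FPKM in Golden Hills at 133 d, at least 44.2-fold higher by the same floor, and at 0, 0 and 0.0508 in Lost Hills (interaction 2.94, limma adjusted p = 0.000709). Of 109 sugar genes 2 were called (1.83%, beside 3.2% of all genes). One of them, a probable galactinol-sucrose galactosyltransferase (evm_TU_ptg000009l_3045), which makes raffinose, rose in both cultivars, in Golden Hills from 13.5 ± 3.2 to 164 ± 29.6 FPKM. Its interaction of 1.56 (limma adjusted p = 0.029) was lost when any 1 of 6 libraries was left out, with adjusted p up to 0.0681.

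More photosystem genes fell in Golden Hills than in Lost Hills, and 2 of 51 tested members were called in the interaction (3.92%, near the 3.2% of all genes). Their median age change was -0.55 in Golden Hills and -0.09 in Lost Hills, and 25 and 11 of them fell. Of all genes 22.2% fell in Golden Hills and 15.7% in Lost Hills, so more genes fell in Golden Hills overall as well. The median interaction was -0.34, and -0.48 with TPM. The 2 called genes were a chlorophyll a-b binding protein (evm_TU_ptg000017l_2157, contig ptg000017l, 38041262 to 38042395) and the photosystem II protein psbY (evm_TU_ptg000024l_156). The former, which binds antenna chlorophyll, fell from 24.3, 18.3, 21.2 and 18 FPKM to 2.16, 2.45 and 4.02 in Golden Hills and from 11.1, 13.2, 9.67 and 15.1 to 7.37, 6.24 and 6.32 in Lost Hills. Golden Hills was the higher cultivar at 91 d and the lower at 133 d, with an interaction of -1.71 (SE 0.25, limma adjusted p = 0.00288). The latter fell from 19.5 ± 4.93 to 10.7 ± 2.08 in Golden Hills and rose from 14.7 ± 3.06 to 21.7 ± 0.697 in Lost Hills (interaction -1.35, limma adjusted p = 0.0156, adjusted p 0.0519 without replicate 2 of Golden Hills at 133 d). The summed level of the 252 photosystem genes, 173 of them at 0 in all 14 libraries, was 1751 to 2611 FPKM in Golden Hills at 91 d and 1304 to 1529 at 133 d, and 1735 to 2181 and 1472 to 1769.8 in Lost Hills, where the ages overlapped.

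Ribosomal and cell division genes were called about as often as other genes or less, with 4 of 189 (2.12%) and 5 of 178 (2.81%) beside 3.2%. The ribosomal count depended on scaling: it was 9 with TPM and with library totals, where 725 and 728 of 19148 genes were called, and 7 with quantile normalization, where 559 were. The median age change of the ribosomal list was 0.05 in Golden Hills and 0.29 in Lost Hills. Ribosomal protein L3-2 of the large subunit (evm_TU_ptg000024l_150) had an interaction of -0.72 (limma adjusted p = 0.0377) and the organelle-type protein L7/L12 (evm_TU_ptg000013l_1353), matched to a bacterium, -0.94 (limma adjusted p = 0.00873). The L18a-like protein (evm_TU_ptg000009l_1847), which is not itself a ribosomal subunit, had 0.86 (limma adjusted p = 0.0257). In the cell division list cyclin-dependent kinase G-2 (evm_TU_ptg000010l_848) had -0.85 (limma adjusted p = 0.0353) and KINESIN LIGHT CHAIN-RELATED 2 (evm_TU_ptg000019l_2636), which acts at cortical microtubules, 1.78 (limma adjusted p = 0.0049). The list also took in a transporter of the tetracycline resistance type (evm_TU_ptg000020l_1580) through its name alone, at 0.81 (limma adjusted p = 0.036). Except for L7/L12 and KINESIN LIGHT CHAIN-RELATED 2, these were lost when single libraries were left out, with adjusted p of up to 0.0904, 0.0608, 0.0806 and 0.0772 in the order named.

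Of 313 tested transcription factors of 6 families 20 were called (6.39%, beside 3.2% of all genes), 12 positive and 8 negative. By family these were 6 of 69 MYB, 2 of 24 MADS-box, 5 of 63 bHLH, 3 of 46 NAC, 2 of 47 WRKY and 2 of 64 ERF genes. Without replicate 2 of both 91 d groups 7 of the 20 were also called, beside 315 of the 613 calls over all genes. WRKY transcription factor 6 (evm_TU_ptg000017l_2331), a regulator of senescence and of phosphate export in Arabidopsis, rose from 8.12 ± 1.42 to 33.6 ± 1.56 FPKM in Golden Hills and from 8.78 ± 0.758 to 15.8 ± 3.65 in Lost Hills (interaction 1.17, limma adjusted p = 0.00819). NAC domain-containing protein 10 (evm_TU_ptg000017l_1797), a regulator of secondary walls, rose from 2.29 ± 0.46 to 15.1 ± 1.61 and from 2.18 ± 0.185 to 6 ± 0.73 (interaction 1.16, limma adjusted p = 0.00499). WRKY transcription factor 22 (evm_TU_ptg000019l_794) had 1.44 (limma adjusted p = 0.0307), but its groups overlapped at 133 d and the call was lost when any 1 of 8 libraries was left out, with adjusted p up to 0.073. On the negative side bHLH131 (evm_TU_ptg000013l_1171) fell from 18.1 ± 3.98 to 1.33 ± 0.717 and from 16.4 ± 2.06 to 8.2 ± 2.04 (interaction -2.13, limma adjusted p = 0.00255). Transcription factor bHLH162 (evm_TU_ptg000017l_1743) had -1.38 (limma adjusted p = 0.0144), with overlap at 133 d. A Myb-related protein (evm_TU_ptg000013l_984), matched to snapdragon, fell from 9.7 ± 1.63 to 5.63 ± 1.7 in Golden Hills and rose from 9.49 ± 1.56 to 16.1 ± 2.81 in Lost Hills (interaction -1.42, limma adjusted p = 0.0144). Of the 63 genes named by rule, 61 did not overlap between the cultivars at 133 d (34% of all genes tested) and 18 did not overlap at 91 d (12.7%). The first count follows in part from their choice, since 95.9% of all 613 called genes did not overlap at 133 d.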

How the data were processed

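RNA from intact and split hulls was selected on poly-T beads and made into libraries with dUTP in the second strand, per the labels' protocols. The submitters' processing notes name HISAT2 2.0.5, StringTie 1.3.3b and featureCounts 1.5.0-p3, and the strand setting of counting and the genome assembly are not given in the sources used here. The deposited table holds FPKM for 39783 genes, 24977 of them with a protein name, and none of the gene identifiers matched the RefSeq table. Whole reads could be recovered from the FPKM for 100% of values (within 0.01 of a whole number) and gave the depths and the voom alternative. Reads recovered per library were 16116971 to 18609861, with a median of 17245326.

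Values were used as log2(FPKM + 1). The 19148 genes that reached 1 FPKM in 3 or more of the 14 intact libraries were fitted with 4 group means in limma 3.58.1 (R 4.3.3, eBayes with a trend), with Benjamini-Hochberg adjustment over all of them. The median SE of the interaction was 0.23. On simulated data of this size the fit called 41 of 100 genes with a 2-fold and 81 of 100 with a 4-fold interaction, and 5.43% of the calls were false. The simulation changed only genes above a minimum mean level and gave all libraries of a gene the same spread. It included no library with reads of the other cultivar, so these shares may not hold for the real data. Replicates within a group differed by more than sampling noise in all 18 pairs (chi-square per gene 9.11 to 68.3), so none was merged. Genes read almost only in 1 cultivar served to measure reads of the other cultivar.

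Named genes were called with and without replicate 2 of both 91 d groups with the same sign, reached a mean of 5 FPKM in their highest group and carried a protein name. They were the 8 with the largest positive and the 8 with the largest negative interaction, and in each gene list up to 3 with the largest absolute interaction, 63 genes in all. The comparison, the lists and these rules were chosen with earlier results of these data known, and the phosphate list after the calls were seen. Alternatives changed the pseudocount, filter, scaling, model and libraries. Genes with close copies of the same name, 16 of the 75 tabulated, are uncertain because reads could be divided between copies.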

Additional observations from a re-analysis of the deposited data

Results flagged for a closer look

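The interaction compares the age change of the 2 cultivars directly, and 613 genes differed by limma at an adjusted p under 0.05.

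Among the genes described, 14 of 150 groups of 4 libraries held a library standing apart from the other 3 (Dixon's criterion). Chance flags about 1 in 20 groups. In Golden Hills at 91 d, replicate 1 stood apart for the GDSL lipase at 0.2 FPKM, the purple acid phosphatase matched to soybean at 9.61 and the aspartic proteinase matched to pumpkin at 4.95. Replicate 2 of that group did so for glycerol-3-phosphate transporter 1 at 25.8 FPKM, PHO1 at 1.53 and bHLH162 at 7.25, and replicate 3 for cellulose synthase-like protein G3 at 4.43. In Lost Hills at 91 d, replicate 4 stood apart for PERK12 at 0.124 FPKM, inorganic pyrophosphatase 2 at 4.81, cellulose synthase-like protein G3 at 4.91 and the 18.5 kDa heat shock protein at 53.0. Replicate 1 did so for trehalose-phosphate phosphatase J at 11.8 FPKM, replicate 2 for GIP2 at 0.352 and replicate 3 for purple acid phosphatase 23 at 1.54.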

How the results depend on the processing

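The number of genes called in the interaction, 613, was 1901 with array weights, 402 by voom on recovered reads, 354 without replicate 2 of both 91 d groups and 156 without Golden Hills replicate 3 of that age as well, and 280 (without replicate 2 of intact Golden Hills at 133 d) to 681 (without replicate 2 of intact Lost Hills at 133 d) when single libraries were left out. The causes were not tested, though the fits without libraries have fewer samples. The other alternatives gave 424 to 728 calls. Calls for the age change numbered 8608 in Golden Hills, 3024 with an absolute log2 difference of at least 1, and 7246 to 8845 with single libraries left out. They numbered 6028 in Lost Hills, 9142 with array weights, 1955 with an absolute log2 difference of at least 1, and 4257 to 6788 with single libraries left out. With the replicate number as a block 430 interactions were called, and 7822 and 5263 age changes. No pairing by number was seen: the deviations of the 19 pairs of libraries with the same number correlated at -0.147 to 0.141. Pairs with different numbers correlated at -0.171 to 0.123. Deviations from the mean of so few libraries cancel within a group, so this check cannot settle whether samples were paired. Of the 63 genes named by rule 27 were called under all of the 28 alternatives that tested them, 34 without the 3 libraries of 91 d with reads of the other cultivar, 52 were called without each single library in turn, and 0 reversed. The alternative without replicate 2 of both 91 d groups was part of the rule, so its result was fixed for these genes. With a median SE of 0.23 and 3 or 4 libraries a group, interactions smaller than about 1 were often not detectable.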
